A study of Bos taurus and Ovis aries and Capra hircus with 9 samples.

Results

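Albumin (ALB) and the genes that follow it on its strand were examined in the livers of cattle, sheep and goats. Albumin was taken by its identifier in each annotation, ENSBTAG00000017121 in cattle, ENSOARG00020002730 in sheep and ENSCHIG00000018952 in goats. Its neighbours were the genes with at least 2 exons that start on the same strand within 200 kb downstream of the albumin start. This gave 1 albumin gene and 3 neighbours per species, out of 27607 genes in cattle, 26478 in sheep and 27271 in goats. RNA-seq was made from snap-frozen liver of healthy adult animals, 3 animals per species, with 1 library each (replicates A, B and C after the labels). The cattle were Holstein, the sheep Texel and the goats Yunnan black goats. No group carried a treatment or a genetic change, and each species was represented by 1 breed, so species and breed cannot be told apart. The cattle were also older than the sheep and goats, by the study's description, so that age and species cannot be told apart in the comparisons with cattle. Messenger RNA was selected with oligo(dT) beads before the reads were counted on genes. Library totals ran from 28332266 to 61105490 counts in cattle and sheep and from 16507706 to 35647106 in goats. In cattle, 9.61% to 10.8% of the counts were on genes of the mitochondrial sequence, more than in sheep (1.99% to 2.99%) and goats (1.09% to 3.70%). Goat replicate C stood apart, with the smallest total, the highest mitochondrial share among the goats and a TMM scaling factor of 1.55, against 0.85 to 1.07 in the other 8 libraries. The comparisons of albumin with goats are given with and without it.

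Albumin is the main protein of blood plasma and is made by hepatocytes. It keeps up the osmotic pressure of the blood and carries fatty acids, hormones and bilirubin. Alpha-fetoprotein (AFP) and afamin (AFM) are members of the same gene family, which arose by duplication and still stands in a row on the chromosome. AFP is the plasma carrier of the fetus, is made by fetal liver and yolk sac, and is turned down after birth, whereas afamin is a vitamin E-binding protein of adult plasma. In the RefSeq table of the cattle assembly ARS-UCD2.0, the genes that follow ALB are AFP, AFM, LOC100140503 and RASSF6, in this order. That table pairs none of the Ensembl identifiers used here with a symbol. The 3 neighbours are therefore called the AFP position, the AFM position and the fourth position (albumin being the first), after their place in the row.

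The row had the same order on chromosome 6 in all 3 species, with all genes on the plus strand. In cattle (ARS-UCD1.2), albumin lay at 88484915 to 88503341, the AFP position (ENSBTAG00000017131) at 88511182 to 88532729, the AFM position (ENSBTAG00000047833) at 88543286 to 88564254 and the fourth position (ENSBTAG00000049436) at 88567842 to 88607902. The sheep genes (Oar_rambouillet_v1.0) were albumin at 98341578 to 98359452, ENSOARG00020002749 at 98366853 to 98388678, ENSOARG00020002776 at 98398366 to 98419715 and ENSOARG00020002816 at 98427499 to 98468164. The goat genes (ARS1) were albumin at 89001829 to 89138714, ENSCHIG00000008075 at 89026097 to 89048847, ENSCHIG00000020387 at 89058001 to 89084407 and ENSCHIG00000011053 at 89104825 to 89128260. The start of the AFP position was 26.3 kb from the albumin start in cattle, 25.3 kb in sheep and 24.3 kb in goats. The start of the AFM position was 58.4, 56.8 and 56.2 kb away, respectively. The model of the fourth position was less alike, starting 82927 nt from the albumin start in cattle and 85921 nt in sheep, but 102996 nt in goats, where it had 7 exons and not 15. Its later exons lay close to those of sheep. Goat exons of 133, 98, 227 and 163 nt began at 112363, 114299, 118024 and 126269 nt, and sheep exons of these lengths at 112156, 114087, 117820 and 126045 nt. The goat model thus started later because it held fewer exons at its front. With this later start, 2 neighbours began within 100 kb of the albumin start in goats, against 3 in cattle and sheep.

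**Figure D1:**
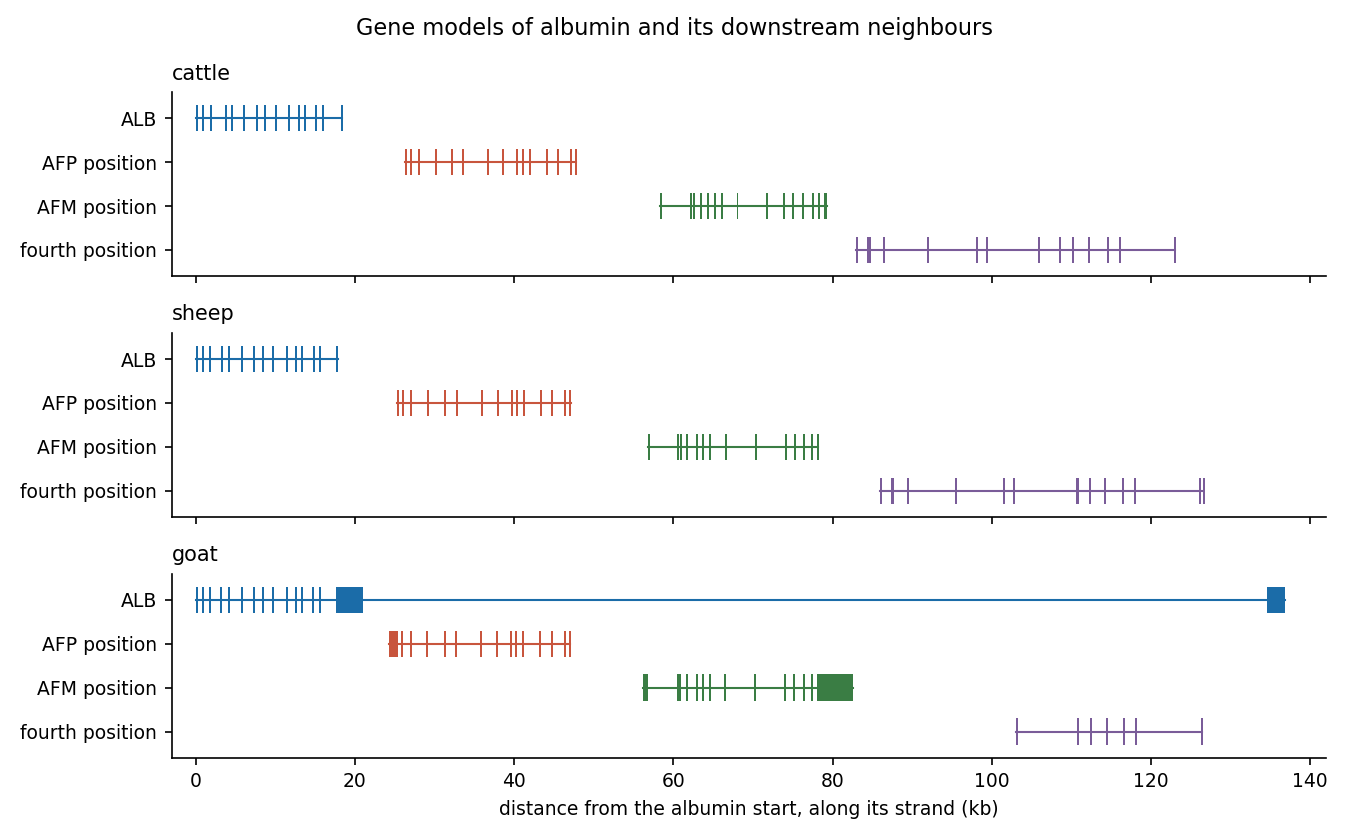
Exons (boxes) and introns (lines) of the gene models of albumin and its 3 neighbours in cattle, sheep and goats, by distance from the albumin start in kb along the strand. The goat albumin model ran for 136.9 kb across the 3 neighbours with no exon between its second last and its last one, whereas the cattle and sheep models ended before the AFP position.

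The goat albumin model spanned 136886 nt, compared with 18427 nt in cattle and 17875 nt in sheep. Its first exon and the 13 after it followed those of the other species. The next exon began 2107 nt after the one before it, where the last exon of cattle began after 2347 nt and that of sheep after 2119 nt, but it was 3281 nt long, against 175 nt and 178 nt. After it came an intron of 113624 nt and a last exon of 2293 nt, which started 8161 nt beyond the end of the fourth position. The 3 neighbours lay inside this intron, and no other gene on either strand did. Albumin exons overlapped exons of each neighbour by 0 nt, and no gene had an exon under an albumin exon. The goat model thus spanned its neighbours without holding an exon of any of them. Its last 2 exons made up 5574 of 7424 nt of exon, or 75.1%, so that any value per exon length of goat albumin is set mainly by these 2 exons. The tables count reads per gene, and how many reads fell on these 2 exons was not analysed here. Models of this kind were few: 14 of 21932 goat genes with at least 2 exons (0.0638%) held at least 3 other such genes of their strand, as did 15 of 20922 in cattle (0.0717%) and 24 of 19176 in sheep (0.125%).

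Exon lengths tied the same genes together across the species. The 13 internal exons of albumin, those between its first and last exon, had the same lengths in cattle and sheep and, apart from the added exon of 3281 nt, in goats. In transcript order they were 58, 133, 209, 133, 98, 130, 215, 133, 98, 139, 224, 133 and 68 nt, 1771 nt in all. An exon of 209 to 224 nt came 3 times, as internal exons 3, 7 and 11, and was followed each time by one of 133 nt. Albumin is known to be built of repeated homologous domains. At the AFP position, all 13 internal exons were equal in length in the 3 species (1758 nt), and at the AFM position 12 were (1691 nt). A search of all gene models by internal exon lengths and gene order, without regard to the distance from albumin, paired albumin, the AFP position and the AFM position each with itself in the other species. The fourth position was not paired by that search and is compared between species by its place alone. Cattle and sheep shared 6 of its 13 internal exon lengths in order, and the goat model shared 3 with either.

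The 3 genes also resembled each other within a species. In each species, albumin and the AFP position had 9 internal exon lengths in common, in order, as had albumin and the AFM position and the AFP and AFM positions, with 12 to 14 internal exons per gene. Among neighbouring genes of 1 strand with 12 to 60 internal exons each, 3.87% of 1420 cattle pairs, 4.14% of 1522 sheep pairs and 4.53% of 1281 goat pairs shared at least 9 lengths that were also at least 60% of those of the gene with fewer. The fourth position shared 6 with albumin in sheep, but 3 in cattle and 3 in goats. With the AFP position it shared 8 in sheep, 4 in cattle and 2 in goats, and with the AFM position 6, 2 and 3.

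**Figure D2:**
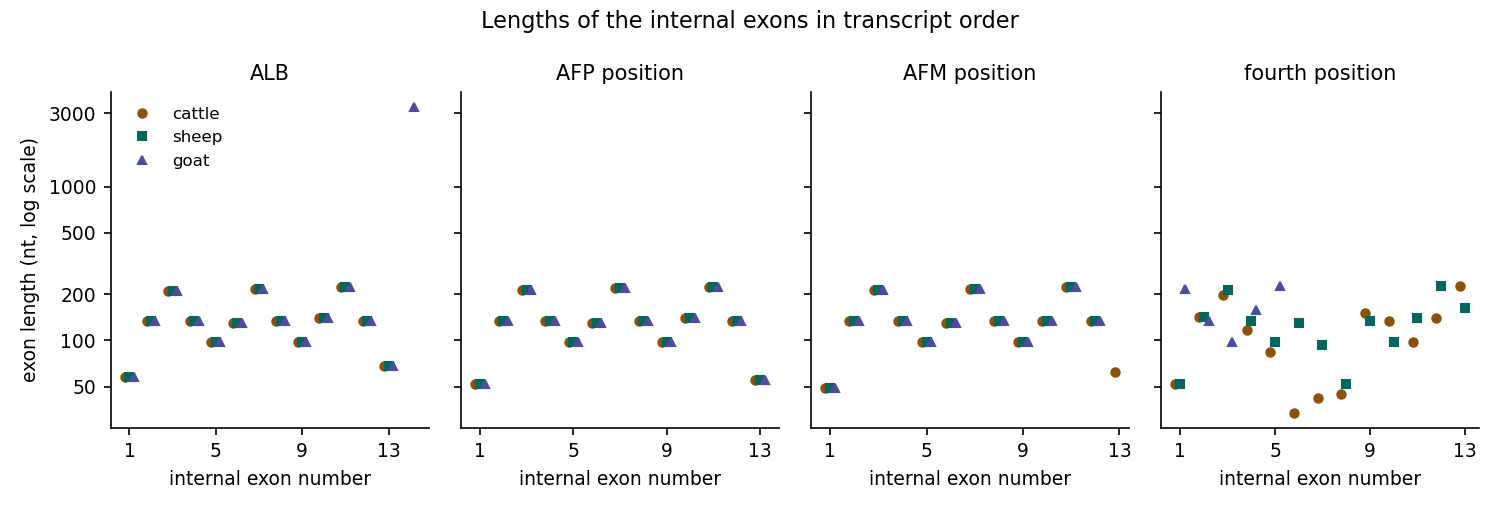
Length in nt (log scale) of each internal exon, in transcript order, of albumin and its 3 neighbours in cattle, sheep and goats. The points of the species lie on each other for the first 13 internal exons of albumin and for the AFP position, the goat albumin model has an added exon of 3281 nt, and the models of the fourth position differ.

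Of all gene counts, albumin took 3.34% ± 0.185 (SD, n = 3) in cattle libraries, 10.3% ± 0.616 in the sheep ones and 6.20% ± 2.80 in those of goats. In cattle, it had 1666014, 1924983 and 1910652 counts in replicates A, B and C, which were 3.47%, 3.42% and 3.13% of the library. The sheep libraries had 3942819, 4484654 and 2791003 counts, or 10%, 11% and 9.85%. In goats, replicates A and B had 2790137 and 1790768 counts, or 7.83% and 7.81%, whereas replicate C had 489541, or 2.97%. All sheep libraries were above all goat and cattle libraries. Goats overlapped cattle through replicate C alone, which was below each cattle library. Without it the goat share was 7.82% ± 0.0103 (SD, n = 2). On the TMM scale of the later fit, 32.9% of all genes tested had every cattle library below every sheep library. Sheep and goat libraries did not overlap, in either direction, for 37.2% of them. In that scale, the albumin values of sheep and goats overlapped. Tissue RNA mixes all cells of the liver, so that fewer hepatocytes and less albumin RNA per hepatocyte cannot be told apart.

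**Figure D3:**
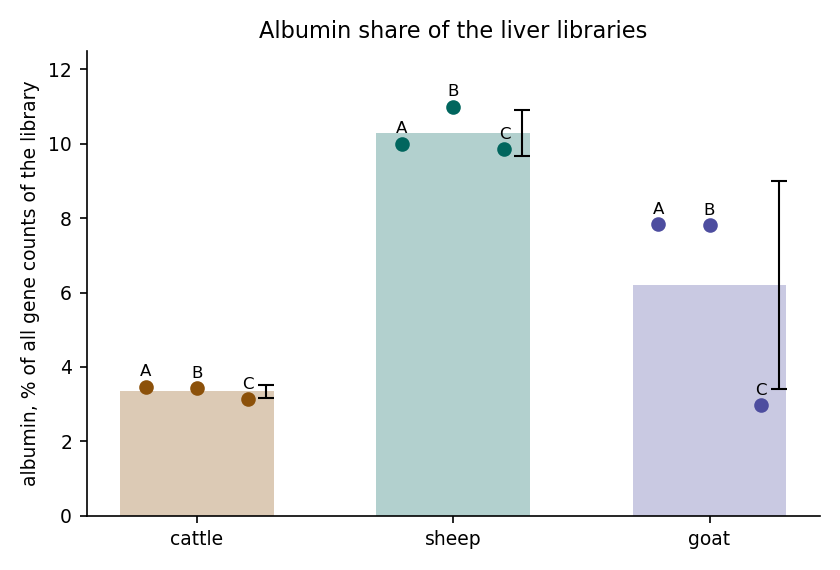
Albumin counts as percent of all gene counts of each library, with the mean (bar) and the SD over 3 animals (line beside the points) of cattle, sheep and goats. Sheep libraries lie between 9.85% and 11%, cattle libraries between 3.13% and 3.47%, and goat replicate C at 2.97% lies apart from goat replicates A and B.

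The order of the mean shares was sheep, goats, cattle. Cattle were 3.08-fold below sheep, a log2 difference of -1.62 with p = 0.1 in a two-sided exact permutation test (0.150 after Benjamini-Hochberg adjustment over the 3 pairs), which is the smallest p that 3 against 3 libraries allow. Sheep were 1.82-fold above goats, a log2 difference of 0.86, also at the smallest p possible (exact permutation p = 0.1, adjusted 0.150). Without goat replicate C this difference was 0.39 (exact permutation p = 0.2, the smallest that 3 against 2 allow), so that its size depended on that library. Cattle and goats, neighbours in this order, did not differ beyond their spread (log2 difference -0.76, exact permutation p = 0.4). Without goat replicate C the difference was -1.23 and the libraries did not overlap (exact permutation p = 0.2). The mitochondrial genes took a larger share in cattle, as given above. With them left out of the total, the albumin share was 3.46% to 3.89% (cattle), 10.1% to 11.3% (sheep) and 3.08% to 7.96% (goats), and the difference between cattle and sheep was -1.50 on the log2 scale (exact permutation p = 0.1).

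Albumin ranked first among all genes in each sheep library, first in goat replicates A and B, and second in goat replicate C. There ENSCHIG00000012599 on chromosome 1, a gene of 3 exons, took 5.28% of the counts, against 1.41% and 2.56% in goat replicates A and B. In cattle, albumin had rank 3 in replicates A and B and rank 5 in C. By mean share, 4 cattle genes were above it. ENSBTAG00000022120 took 6.23% ± 1.59, ENSBTAG00000006745 3.70% ± 0.871 and ENSBTAG00000001638 3.49% ± 0.832 (SD, n = 3), and all of them lie on chromosome 17 between 2840842 and 2932611. The other one was the mitochondrial gene ENSBTAG00000043561 with 3.95% ± 0.449. In sheep, the gene next to albumin by mean share, ENSOARG00020016763, took 1.63% ± 0.392, far below albumin.

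The counts were then compared over 7833 genes shared by the 3 species, with TMM scaling and the quasi-likelihood test of edgeR. In this scale, CPM is relative to the scaled total of the shared genes. Albumin was lower in cattle than in sheep, with a mean of 61548 ± 4955 CPM against 180279.5 ± 41355 (SD, n = 3), a log2 fold change of -1.55 ± 0.55 (SE; edgeR adjusted p = 0.0369). Of all genes tested, 26.8% differed at least as much between cattle and sheep. The call was weak. When 1 library was left out, the adjusted p rose above 0.05 in 7 of 9 edgeR fits, up to 0.119 without sheep replicate B, while the log2 fold change stayed between -1.66 and -1.35. It fell to 6.3e-04 without goat replicate C, the library with the lowest albumin, which enters the spread that the 3 species share in the fit.

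Between cattle and goats, the log2 fold change of albumin was -0.90 ± 0.55 (edgeR adjusted p = 0.183), and it was -1.30 (0.00336) without goat replicate C. Both values have cattle lower, but the call depended on this library. Between sheep and goats, it was 0.65 ± 0.54 (edgeR adjusted p = 0.423) and 0.27 (0.512) without goat replicate C, and the 3 sheep libraries, at 152328 to 227786 CPM in this scale, overlapped goat replicates A and B, at 153031 and 155389.9 CPM. The sum of the 4 genes of the row, used in place of albumin, gave -1.55, -0.91 and 0.64 for these 3 comparisons, because albumin made up nearly all of the counts of the row.

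These comparisons use counts per gene, which are not divided by gene length. Divided by annotated exon length, albumin stood at 15856 ± 878 CPM per kb in cattle, 50135 ± 2999 in sheep and 8354 ± 3775 in goats, so that goats came last. Goat replicates A and B alone, at 10543 and 10523 CPM per kb, were also below every cattle library (14854 to 16489.8). With the 1771 nt of internal exons that all 3 models share as the length, it was 18847 ± 1043, 58118 ± 3476 and 35018 ± 15825 CPM per kb, and goats came between the others. Here all counts of each model, also any on the long goat exons, were divided by the same length. The differences between species are therefore those of the albumin share, with no correction for length. Cattle were thus 2.08-fold above goats with the first length (exact permutation p = 0.1, n = 3) and 1.70-fold below them with the second (exact permutation p = 0.4). With the second length, goat replicates A and B stood at 44196 and 44114 CPM per kb and replicate C at 16745. Likewise, an offset of annotated exon length in the edgeR fit turned it from -0.90 to 0.91 (adjusted p = 0.182) and raised the difference between sheep and goats to 2.50 (adjusted p = 0.00882). For goat albumin, the direction against cattle therefore depended on whether the 2 long exons at the end of the model were counted as its length.

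At the AFP position, the counts were near the limit of detection. Cattle replicates A, B and C had 1, 9 and 3 counts, sheep had 137, 49 and 18, and goats had 7, 21 and 17. Each sheep and goat library except goat replicate A was above each cattle count, and in CPM of the library total all of them were. The margin was thin, since the 95% counting intervals of goat replicate A (0.0790 to 0.405 CPM) and cattle replicate B (0.0730 to 0.303 CPM) overlapped. Of all genes tested, on the TMM scale, 32.9% had every cattle library below every sheep library, and 30.5% below every goat library. Counts of 3, taken as the smallest that can be told from none, correspond to a CPM of 0.0491 to 0.182 in these libraries, and this floor covers counting error only, since PCR copies are not independent molecules. Cattle replicates A and C, at 0.0208 and 0.0491 CPM, did not exceed it. The sheep values were 3.49, 1.2 and 0.635 CPM and the goat values 0.196, 0.916 and 1.03 CPM.

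Over the pooled counts, 204 in sheep against 13 in cattle, the CPM ratio was 23.9 with an exact 95% interval of 13.7 to 45.8 from counting error, and the ratio of goats (45 counts) to cattle was 7.63 (4.04 to 15.4). Sheep replicate A alone gave 137 of the 204 sheep counts, and these intervals do not cover such spread between animals. In the edgeR fit, the log2 fold change of cattle was -4.38 ± 0.86 against sheep (adjusted p = 0.00162) and -2.97 ± 0.87 against goats (adjusted p = 0.0142). Between sheep and goats it was 1.41 ± 0.74 (edgeR adjusted p = 0.192), and the libraries overlapped. The filter on low counts used CPM after TMM scaling of the shared genes, not CPM of the library total. In that scale, sheep replicates A and B stood at 5.58 and 2.49 and goat replicates B and C at 1.82 and 1.29. The gene passed through these 4 libraries and no cattle library, so the filter favoured a difference from cattle. The cattle to goat difference passed the threshold neither without cattle replicate C (-2.68, edgeR adjusted p = 0.0552) nor without goat replicate B (-2.44, adjusted p = 0.0626).

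**Figure D4:**
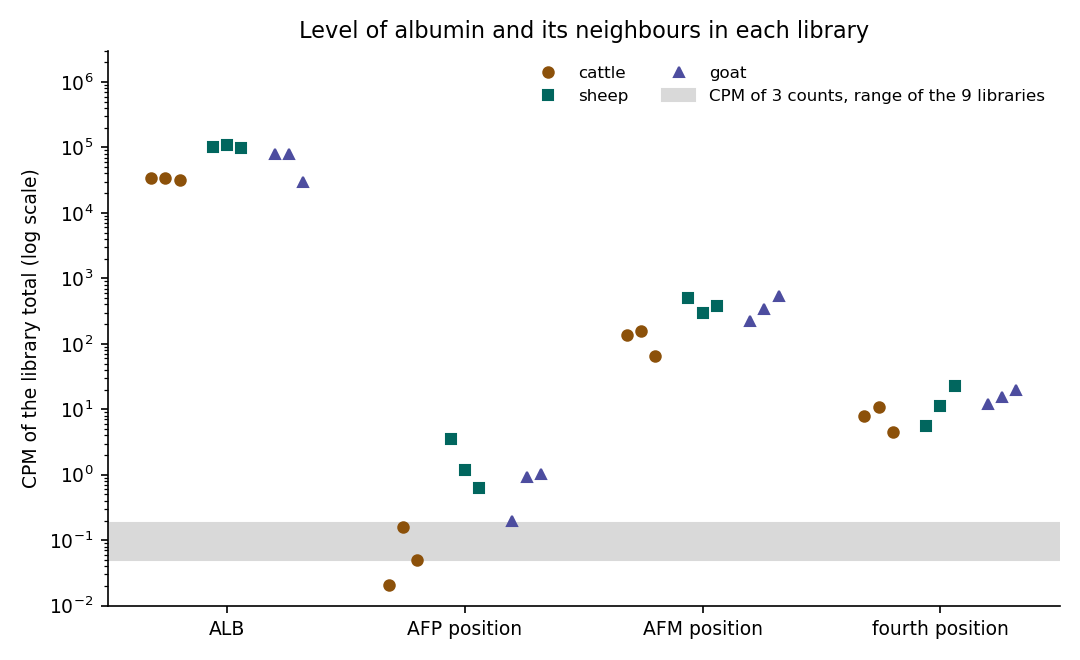
CPM of the library total (log scale) of albumin and its 3 neighbours in each library, with replicates A, B and C from left to right within a species and the range of the CPM of 3 counts as a grey band. Albumin lies at 29655 CPM or higher in every library, the AFM position between 65.2 and 532, the fourth position between 4.52 and 23.0, and the AFP position in cattle within or under the band.

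The AFM position was the most abundant of the 3 neighbours in every library. Cattle had 136, 157 and 65.2 CPM of the library total in replicates A, B and C, sheep had 504, 298 and 382, and goats had 221, 341 and 532. Every cattle library was below every sheep and goat library, whereas sheep and goats overlapped. The log2 fold change of cattle was -1.62 ± 0.37 against sheep (edgeR adjusted p = 0.00364) and -1.44 ± 0.36 against goats (adjusted p = 0.00638). Both passed the threshold in all 9 fits that left out a library, with adjusted p up to 0.0157 and 0.0327. Between sheep and goats it was 0.18 ± 0.36 (edgeR adjusted p = 0.753). As for albumin, the goat model was long, with 6913 nt of exon (4570 nt of it in the last one) against 2253 nt in cattle and 1843 nt in sheep. Once annotated exon length entered the fit as an offset, the log2 fold change against goats was 0.18 in cattle (edgeR adjusted p = 0.704) and 2.09 in sheep (adjusted p = 0.00224). Per kb of the 12 shared internal exons, the levels were 70.7 ± 28.5 CPM in cattle, 233 ± 61.2 in sheep and 216 ± 92.6 in goats.

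Goat replicate C had the lowest albumin of the 9 libraries. In CPM of the library total it also had the highest level at the AFM position, 532, but after TMM scaling its level of 668 was below sheep replicate A (807) and goat replicate B (678). The ratio of the 2 genes within a library does not depend on this scaling. Albumin made up 99.49% to 99.78% of the counts of the 4 genes in the other 8 libraries but 98.17% in goat replicate C, where the AFM position took 1.76%, against 0.208% to 0.5% elsewhere. With all counts of each gene taken per kb of its shared internal exons, albumin exceeded the AFM position 244-, 207- and 458-fold in cattle, 190.1-, 352- and 246-fold in sheep, and 338-, 219- and 53.2-fold in goats. Except in that library, the 3 species overlapped in this ratio. With annotated exon lengths, this ratio was 1.33-fold higher in cattle than in sheep, 2.07-fold higher in cattle than in goats and 1.55-fold higher in sheep than in goats (exact permutation p = 0.4, 0.4 and 0.6; 0.6 each after adjustment). Both differences from goats rested on goat replicate C, since without it the log2 ratio was 0.27 higher in cattle than in goats and the difference of sheep minus goats turned to -0.15 (exact permutation p = 0.8 and 1). The mitochondrial share, the depth and the TMM factor of this library also stood apart, and their part in its albumin value was not tested.

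At the fourth position, no difference in counts passed the threshold. Cattle had 7.90, 10.8 and 4.52 CPM of the library total, sheep had 5.65, 11.1 and 23.0, and goats had 11.9, 15.2 and 19.7. Goat libraries were above all cattle libraries, but the edgeR adjusted p was 0.112 (log2 fold change -0.89 ± 0.44). Cattle and sheep overlapped (-0.68 ± 0.44, edgeR adjusted p = 0.222), as did sheep and goats (-0.21 ± 0.44, adjusted p = 0.768). The comparison of cattle with sheep depended on sheep replicate A, since without it the log2 fold change was -1.06 (edgeR adjusted p = 0.0376). These values compare gene models of unequal extent, because the goat model has 1059 nt of exon, against 1710 nt in cattle and 1810 nt in sheep. With exon length as an offset, the log2 fold change between cattle and goats was -1.58 and passed the threshold (edgeR adjusted p = 0.0124). What this gene does is not described here, since it carries no name.

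The AFP position had entered the test only through sheep and goat libraries, so the counts over the row are given for the other 3 genes. Between cattle and sheep, 2 of these 3 were called (albumin and the AFM position), both lower in cattle, whereas 48.5% of all genes tested were called and 25.3% were called lower in cattle. Against goats, 1 of the 3 was called (the AFM position, lower in cattle), beside 52.4% of all genes called and 27.6% called lower in cattle. Between sheep and goats, 0 of the 3 were called by edgeR, beside 25.2% of all genes. DESeq2 also called 0 of the 3, beside 2426 of all 7833 genes. At an unadjusted edgeR p under 0.05 the count was 0 too, but all genes were not counted at that threshold. On the TMM scale of the fit, all cattle libraries were below all sheep libraries for 2 of the 3 genes and below all goat libraries for 2 of the 3, as for 32.9% and 30.5% of all genes. Sheep and goat libraries overlapped for each of the 3 on this scale, and did not for 37.2% of all genes. With so few genes and backgrounds this high, the counts do not set the row apart. The comparisons with cattle share the cattle libraries and are not independent of each other. By size, 26.8% of all genes differed at least as much as albumin between cattle and sheep and 51.6% in the comparison with goats, and for the AFM position these shares were 25.4% and 32.0%.

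**Figure D5:**
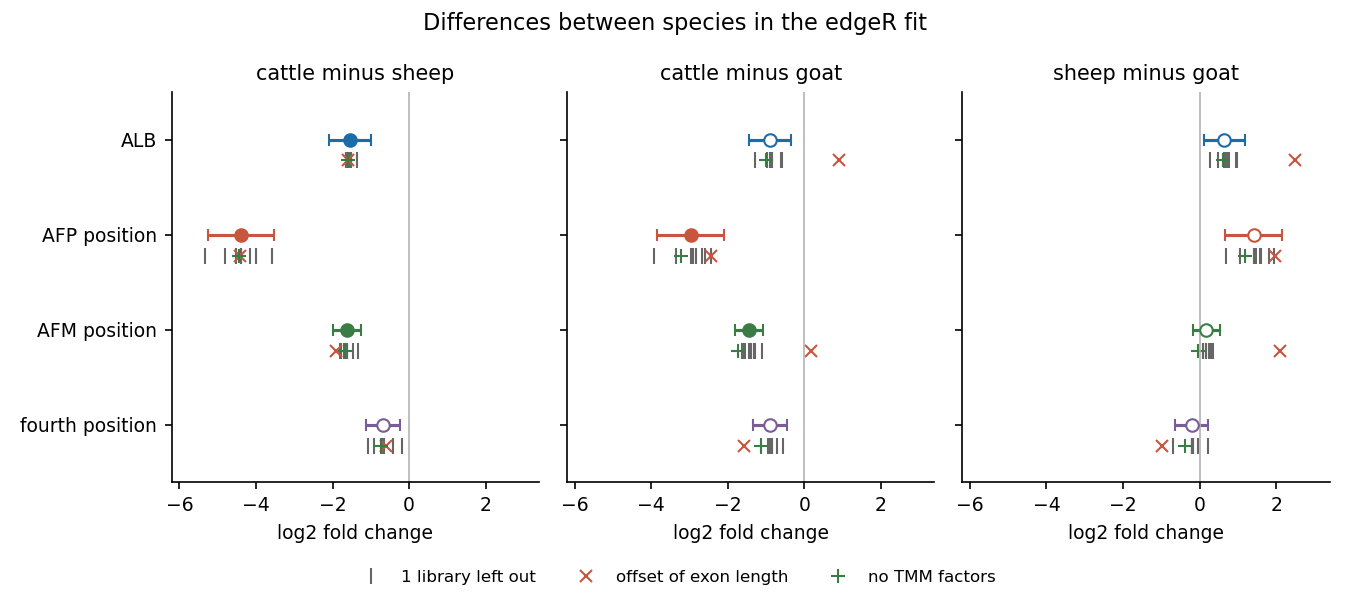
Log2 fold change (circle) with its SE (line) of albumin and its 3 neighbours in each pair of species in the edgeR fit, filled where the adjusted p is under 0.05. The AFP position passed the filter on low counts through sheep and goat libraries and no cattle library, which favoured a difference from cattle. Marks under each circle give the fits that left out 1 library, used an offset of annotated exon length or used no TMM factors, and the offset of exon length moved albumin from -0.90 to 0.91 and the AFM position from -1.44 to 0.18 between cattle and goats.

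Over all 9 libraries together, the neighbours did not follow albumin closely. Pearson's r with albumin, on log2 CPM after TMM scaling, was 0.559 at the AFP position, 0.517 at the AFM position and 0.249 at the fourth position. These values include goat replicate C, which had the lowest albumin (37232 CPM in this scale) but 668 CPM at the AFM position. The r without this library was not calculated, so how far the low values rest on it is not known. Of 5892 shared genes with a mean of at least 10 CPM, the 5 most like albumin were ENSBTAG00000007605 (r = 0.986), ENSBTAG00000020973 (0.975), ENSBTAG00000007630 (0.974), ENSBTAG00000004064 (0.971) and ENSBTAG00000002203 (0.970), named by their cattle identifiers. For example, ENSBTAG00000007605 on chromosome 5 had 169 ± 14.5 CPM in cattle, 351 ± 51.1 in sheep and 253 ± 96.9 in goats (SD, n = 3). These values describe 9 libraries that fall into 3 species and share their scaling. The choice was not stable, since 0 of the 5 were among the first 5 by Spearman's rho, and 1, 1 and 0 of them when cattle, sheep or goats were left out.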

How the data were processed

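The authors trimmed paired reads with Trimmomatic 0.39, mapped them with STAR 2.7.6 (at most 3 mismatches) to the Ensembl genome of each species, and deposited raw featureCounts counts per gene with exon positions and exon length. The featureCounts version, strand and pair options are not given in the sources used here. Values are CPM or percent of all gene counts. Chi-square values of 101 to 428 per degree of freedom showed no library deposited more than once.

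Gene names were taken from no table, since none pairs these identifiers with symbols. Shared genes of the 3 species (8861) were paired by internal exon lengths and gene order: reciprocal best match, at least 2 internal exons and 50% matched, a score 1.05 times the next best, and 2 other pairs within 10 pairs. The pairing was tested on a simulated copy of the cattle models with genes and exons lost and exon lengths changed, but with gene order kept. There, 9921 of 12329 genes were paired rightly and 3 wrongly. The error between the real annotations of the 3 species was not measured. Genes with CPM (TMM-scaled, of the shared genes) above 1 in 2 of 9 libraries (20%) were kept (7833) and tested in edgeR 4.0.16 (R 4.3.3; robust quasi-likelihood, all 9 libraries, Benjamini-Hochberg threshold 0.05). On simulated counts for 7833 genes with 200 changed 4-fold in cattle, 165 of them and 12 others were called between cattle and sheep. Single values were tested with SciPy 1.17.1, on the log2 scale, for ratios with a pseudocount of 1 count; likeness used log2 of CPM plus 0.5. With 1 library per animal, p-values set a difference against a spread in which animals and libraries cannot be told apart.

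Named genes follow a rule: albumin and its neighbours, the 5 shared genes most like albumin (mean CPM of at least 10), and, from the 5 genes with the most counts per species, those above or next to albumin. A list of plasma protein genes, the family member GC and cell type markers needed gene names and were not run, so the liver label was checked only by the rank of albumin. Members and lists were chosen with earlier results of these data known. Alternatives were DESeq2 1.42.0, other filters, scaling, exon lengths and windows, a replicate block, and leaving out each library.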

Additional observations from a re-analysis of the deposited data

How the results depend on the processing

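Of 192 alternative values of the 4 genes in edgeR or DESeq2 fits, 173 changed neither direction nor call. Most of these values belong to comparisons that the main fit did not call, so this share does not measure how stable the calls were. Albumin between cattle and sheep kept its call in 8 of 8 alternatives with all libraries, but in only 2 of 9 that left out 1. The exact permutation tests of 3 against 3 or fewer libraries could not pass 0.05 and say nothing on stability. Leaving out 1 library in turn, the edgeR log2 fold change of albumin ran from -1.66 to -1.35 (cattle minus sheep), -1.30 to -0.58 (cattle minus goats) and 0.27 to 0.98 (sheep minus goats). That of the AFP position ran from -5.34 to -3.59, -3.93 to -2.44 and 0.68 to 1.95, and that of the AFM position from -1.80 to -1.34, -1.62 to -1.10 and 0.08 to 0.35. The fourth position ran from -1.06 to -0.18, -1.13 to -0.57 and -0.70 to 0.22, the last reversed without sheep replicate A. Albumin between cattle and sheep had an adjusted p above 0.05 without any 1 of the cattle libraries, the sheep libraries or goat replicate B (0.0505 to 0.119). The count of genes called between sheep and goats ran from 1293 (without goat replicate B, against 1976) to 2296. The ratio of albumin to the AFM position ran from -0.15 (without goat replicate C) to 1.19 between sheep and goats. Albumin between cattle and goats was -0.99 (edgeR adjusted p = 0.0261) without TMM factors, which moved the median of all genes to -0.35, so that albumin lay -0.63 from it, and the AFM position between sheep and goats was -0.05. An offset of annotated exon length gave 0.91 and 2.50 for albumin and 0.18 and 2.09 for the AFM position, against goats in cattle and sheep, and -1.58 (adjusted p = 0.0124) for the fourth position between cattle and goats, with medians of all genes at -0.25 (cattle minus goats) and 0.15 (sheep minus goats); relative to these, albumin lay at 1.17 and 2.35 and the AFM position at 0.43 and 1.94. Of the genes called, 47.9% were higher in cattle than in sheep, 47.4% higher in cattle than in goats and 45.6% higher in sheep than in goats; the offset made these 27%, 37.2% and 66.3%, and no TMM factors 42.3%, 35.1% and 33.9%. With the matched exons as length, which is the same for each species, the albumin level of cattle minus goats was -0.76, as for its share of counts. The log2 ratio of albumin to the AFP position of sheep minus goats was then -0.35, as it was with counts not divided by length. The 500 kb window held 10, 8 and 9 neighbours in cattle, sheep and goats. DESeq2 gave an adjusted p of 0.00173 for albumin of cattle against sheep and 0.0723 against goats. The letters A, B and C did not pair the animals (correlations of deviations between libraries of the same letter from -0.187 to 0.295); with the replicate block, albumin was -1.51 (edgeR adjusted p = 0.0343), -0.73 (0.272) and 0.79 (0.313), and the block changed no call of the 4 genes. The alternatives for the fourth position and the matched exon length in the ratios were chosen after seeing the data. Not run were the plasma protein list, for want of gene names, and the AFP position with CPM above 1 in every library, which it did not reach. With 3 animals per species and 1 to 9 counts at the AFP position in cattle, smaller differences could not be detected.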
